A study of Mus musculus with 5 samples.

Results

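The genes described here encode the machinery that brings nuclear-encoded proteins into mitochondria and folds them there. They were taken by symbol: every gene on the array whose symbol starts with Timm or Tomm followed by a digit, and 16 further genes for sorting and assembly, presequence cleavage, folding and proteolysis. That gave 40 genes of the 19938 with a probe set assigned to a single gene, and the probe set with the highest mean signal stood for each gene. The symbols alone chose them, but the set was drawn up with earlier results of these data known.

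The samples were islet cells of untreated C57BL/6 mice aged 8 to 12 weeks, all heterozygous for Flattop (FVR/+), an allele that both fractions therefore carried. Cells had been sorted by flow cytometry into a Flattop-positive fraction (3 arrays) and a Flattop-negative fraction (2 arrays), and each array held a pool from 4 to 6 mice of undetermined sex. The comparison asks how the fractions differ, in a series whose title names proliferative and mature β-cells. Values are log2 signals made by the authors with RMA, so a difference of 1 stands for a ratio of 2.

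Almost all mitochondrial proteins are made in the cytosol as precursors and must cross the outer membrane through the TOM complex. From there the SAM complex inserts barrel-shaped proteins into the outer membrane, small chaperones escort hydrophobic precursors across the intermembrane space, and the TIM22 and TIM23 complexes serve the inner membrane. A motor built around a mitochondrial Hsp70 pulls precursors into the matrix, where a peptidase removes the presequence, chaperonins fold the protein and proteases clear what fails to fold. In β-cells, mitochondrial ATP production couples glucose metabolism to insulin release.

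Cfap126, the gene of the cilia-associated protein Flattop, had 6.07, 6.07 and 6.24 in Flattop-positive pools, against 5.52 and 5.44 in Flattop-negative pools (difference 0.64 ± 0.18 SE, limma adjusted p = 0.274). Across the 19938 genes the Flattop-negative arrays correlated with each other at r = 0.846, and all other pairs at 0.896 to 0.984. The 12 β-cell markers had median levels of 9.89, 9.70 and 9.73 in Flattop-positive pools, against 8.00 and 8.75 in Flattop-negative pools. Of the 12, 10 were higher without overlap, as were 13.7% of all genes. Their median signal was 9.20, and among genes outside the 40 with a mean signal over 9 that share was 39.9%. Ins2 and Iapp overlapped between groups, with differences of 0.18 ± 0.28 and 0.095 ± 0.19. The 7 α-cell markers measured had medians of 5.30, 5.42 and 5.59, against 5.89 and 6.57, and 6 of them had a lower mean in Flattop-positive pools. Among these 6, Gcg was bright in both groups, at 12.85, 12.81 and 13.17, against 13.06 and 13.39. Ttr went the other way, at 12.27, 12.34 and 12.41, against 9.69 and 12.67, with overlap. The 10 immune markers had medians of 4.37, 4.24 and 4.56, against 4.30 and 5.56, and the 8 acinar markers measured 4.04, 4.29 and 4.47, against 4.49 and 5.37. The 8 stellate and mesenchymal markers had 4.50, 4.62 and 4.97, against 4.87 and 5.47, with 4 lower without overlap (21% of all genes). The 4 δ-cell and PP-cell markers had 8.77, 8.95 and 9.29, against 6.51 and 9.72, and among them Sst had 12.32, 12.33 and 12.93, against 8.08 and 13.19. None of these markers was at 0, since RMA gives every probe set a signal, and the part that cell makeup plays in the results below was not tested. In a pool of cells, fewer cells of a type and less RNA per cell cannot be told apart.

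Import and folding genes lay higher in the Flattop-positive pools in most cases. Of the 40, 35 had a higher mean in the Flattop-positive pools and 5 a lower one, with a median log2 difference of 0.55, against a median of -0.10 over all genes tested. In 21 of the 40 every Flattop-positive pool was above both Flattop-negative pools, a pattern found in 13.7% of all genes tested. The opposite pattern held in 2 of the 40, and in 21% of all genes. At an unadjusted limma p under 0.05 and at least 1.5-fold, 13 were higher (8.08% of all genes) and 1 was lower (3.74% of all genes). After Benjamini-Hochberg adjustment over all 19938 genes in limma 0 of the 40 passed 0.05, and 0 of all genes did, or 0% (16 of the 40, and 13.8% of all genes, had an unadjusted p under 0.05). The member median on each array was 7.24, 7.05 and 6.89 in Flattop-positive pools, against 6.72 and 6.33 in Flattop-negative pools. Without Flattop-negative replicate 1, 32 of the 40 were higher without overlap and 3 lower, against 5727 and 8157 of all genes. Without replicate 2, 25 were higher and 8 lower, against 5832 and 7977 of all genes. In that fit the Flattop-negative arm is a lone array, assumed to vary like the Flattop-positive pools, and 434 of all 19938 genes passed the adjusted threshold, 2 of the 40 (Timm13 and Mtx1) among them.

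**Figure D1:**
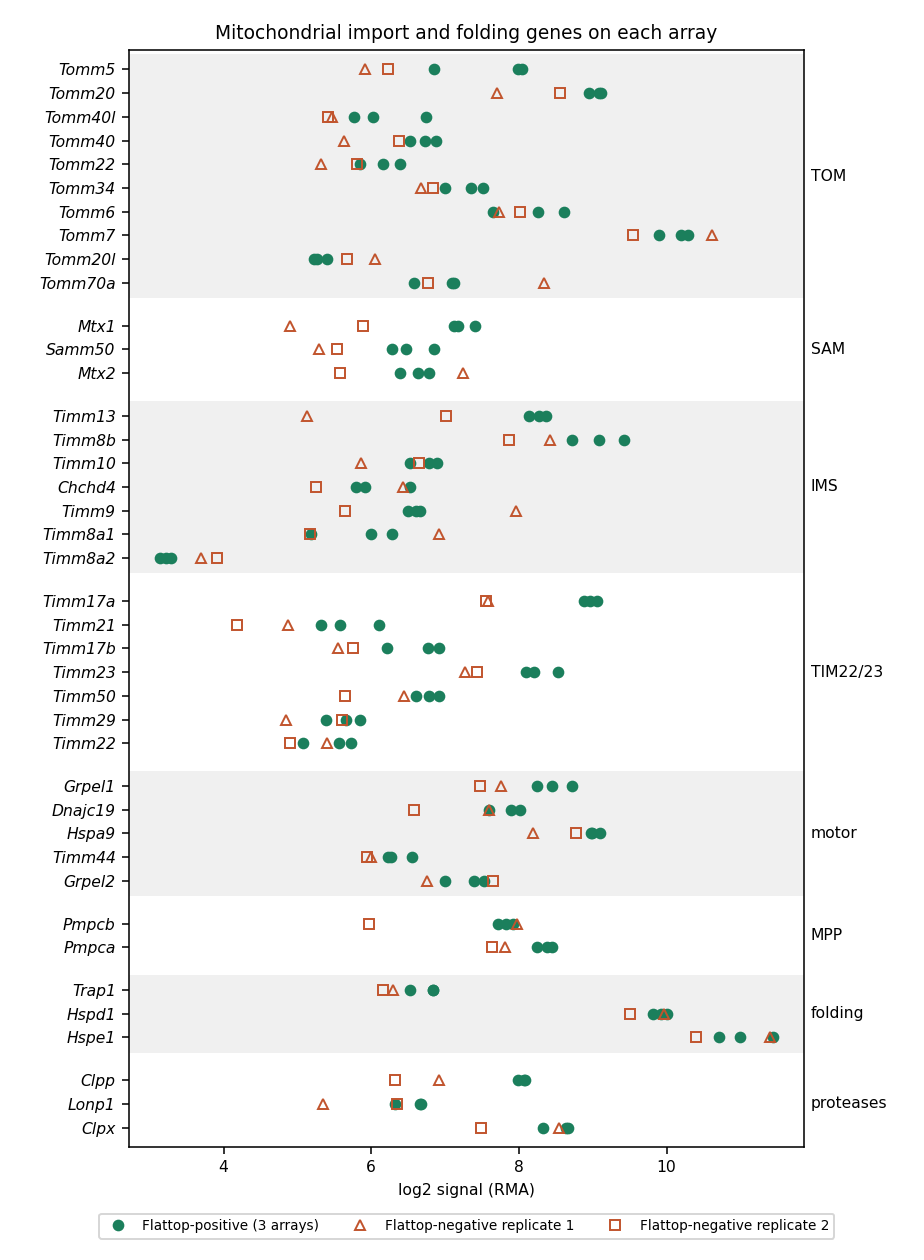
Log2 signal (x axis) of each of the 40 genes (rows, grouped by role and ordered by difference) on the 3 Flattop-positive arrays (filled circles) and on Flattop-negative replicates 1 (triangles) and 2 (squares). IMS stands for the intermembrane space and MPP for the presequence peptidase; filled circles lie to the right of both open symbols for 21 genes and to the left of both for Tomm20l and Timm8a2.

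The differences have to be read against the signal, because on these arrays brighter genes tended to lie higher in the Flattop-positive pools. Among all other genes the median difference was -0.26 at a mean signal under 5, 0.29 between 6 and 7, 0.43 between 8 and 9 and 0.56 over 9. Members had a median difference of 0.70 in the range of 6 to 7 (11 genes), 0.85 in the range of 7 to 8 (9 genes, other genes 0.34) and 0.75 in the range of 8 to 9 (8 genes). Higher without overlap were 7 of 11, 5 of 9 and 6 of 8 members in these ranges, against 27.1%, 29.8% and 36.4% of the other genes. The order was the other way round for the 3 brightest members, Hspe1, Tomm7 and Hspd1, whose median difference was 0.16. For Hspe1 and Hspd1 this depended on the probe set, since their second probe sets had differences of 0.69 and 0.52 without overlap. With a cyclic loess between arrays, which brought the median of all genes to -0.0037, the member median was 0.36 and 15 of 40 were higher without overlap, against 13.6% of all genes.

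**Figure D2:**
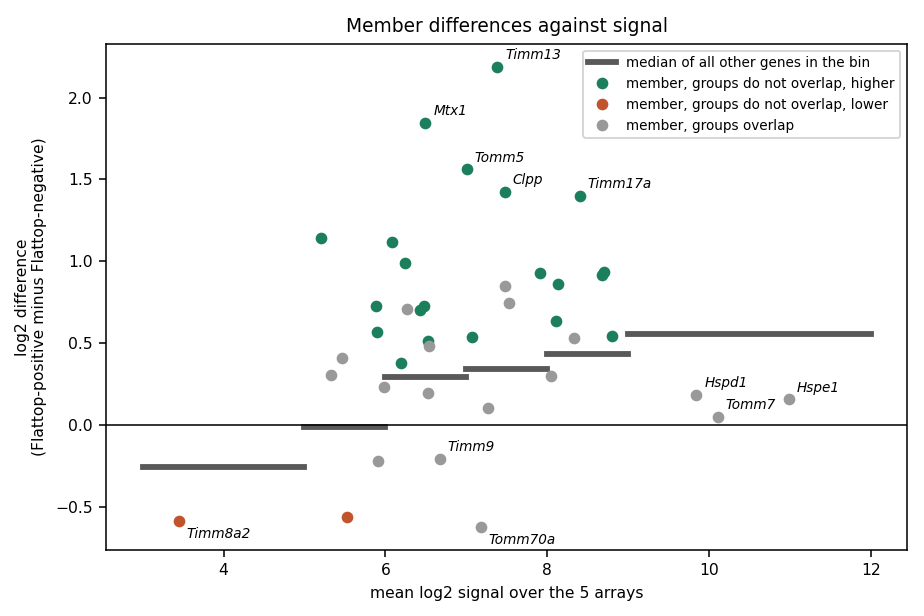
Log2 difference of each member (y axis, Flattop-positive minus Flattop-negative) against its mean log2 signal over the 5 arrays (x axis); grey bars are the medians of all other genes in each range of signal. Most members between 6 and 9 lie above the grey bar, while Hspd1, Tomm7 and Hspe1, at over 9, lie below it. The second probe sets of Hspd1 and Hspe1, not drawn, had differences of 0.52 and 0.69.

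Promoter sequence was examined for the members because most lay on the same side. RefSeq windows (GRCm38.p6) were matched by gene ID for 35 of the 40 genes; Tomm40l, Tomm7, Timm21, Hspa9 and Grpel2 had none. The 250 bases before each start were searched on both strands for CCGGAAG, the core bound by the ETS factor GABP, an activator of many nuclear genes for mitochondrial proteins. It was found in 15 of the 35 (42.9%), against 7.83% of 27025 genes with a window and 10.7% of those on the array. Hspd1 and Hspe1, which lie head to head, shared their match, on both strands of the same bases. CCAAT was found in 31.4% of members, against 37.5% of genes with a window and 38.8% of those on the array. The NRF-1 letters (GCGCA and GCGC parted by any 1 base) were in 8.57% of members (3 of 35), against 4.23% and 6.40%. The heat shock letters GAANNTTC were in 8.57% (3 of 35), against 7.73% and 6.87%. A base could count towards more than 1 motif.

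The following windows show the member with the smallest p, which lacks CCGGAAG, the 3 with the smallest p that hold it (Mtx1 and Timm23 of the outer and inner membrane, and Grpel1 of the import motor), Pmpcb, which holds it but whose groups overlapped, and Hspe1, whose window reaches back over a start of Hspd1. Each ends at the base before the gene's start and is written 5′ to 3′ in the gene's direction, with the match on either strand in capitals.
Timm17a, chr1:135313738-135313987, minus strand: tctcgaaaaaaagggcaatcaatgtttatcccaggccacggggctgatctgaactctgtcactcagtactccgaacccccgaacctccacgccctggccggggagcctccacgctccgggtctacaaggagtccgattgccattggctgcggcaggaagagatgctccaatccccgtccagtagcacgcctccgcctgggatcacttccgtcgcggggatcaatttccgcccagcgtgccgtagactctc
Mtx1, chr3:89213908-89214157, minus strand: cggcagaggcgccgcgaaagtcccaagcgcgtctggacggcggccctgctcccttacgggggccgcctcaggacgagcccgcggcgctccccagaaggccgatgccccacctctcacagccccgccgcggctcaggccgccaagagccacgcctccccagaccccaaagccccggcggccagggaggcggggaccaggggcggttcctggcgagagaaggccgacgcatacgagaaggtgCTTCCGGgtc
Timm23, chr14:32201892-32202141, minus strand: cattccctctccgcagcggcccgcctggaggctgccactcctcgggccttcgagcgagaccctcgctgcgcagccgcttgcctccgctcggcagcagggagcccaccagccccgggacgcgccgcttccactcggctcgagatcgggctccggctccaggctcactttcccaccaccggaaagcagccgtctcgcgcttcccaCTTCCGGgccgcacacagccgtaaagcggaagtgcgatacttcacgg
Grpel1, chr5:36464935-36465184, plus strand: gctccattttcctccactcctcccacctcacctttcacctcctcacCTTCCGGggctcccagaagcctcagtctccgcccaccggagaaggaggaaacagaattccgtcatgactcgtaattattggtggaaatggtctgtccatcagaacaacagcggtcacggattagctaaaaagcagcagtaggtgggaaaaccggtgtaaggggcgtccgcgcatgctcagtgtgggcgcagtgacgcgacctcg
Pmpcb, chr5:21736910-21737159, plus strand: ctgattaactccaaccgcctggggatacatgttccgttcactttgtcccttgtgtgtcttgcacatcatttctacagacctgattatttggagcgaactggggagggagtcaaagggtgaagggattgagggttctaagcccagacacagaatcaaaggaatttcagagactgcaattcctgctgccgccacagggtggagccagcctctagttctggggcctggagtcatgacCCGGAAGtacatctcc
Hspe1, chr1:55087898-55088147, plus strand: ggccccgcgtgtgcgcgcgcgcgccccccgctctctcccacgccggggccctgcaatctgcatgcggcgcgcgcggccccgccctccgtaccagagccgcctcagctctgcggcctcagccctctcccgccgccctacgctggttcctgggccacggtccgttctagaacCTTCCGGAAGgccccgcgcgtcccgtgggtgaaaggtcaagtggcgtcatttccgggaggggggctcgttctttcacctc

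The match began 10 bases before the start in Mtx1, 16 in Pmpcb, 47 in Timm23 and 204 in Grpel1. It was present on both sides of the comparison, in 7 of 18 members with a window that were higher without overlap, in 7 of 15 that overlapped and in 1 of 2 that were lower. Members with it had a median difference of 0.54 (15 genes), and members without it 0.70 (20 genes). Over all genes on the array with a window, those with it had a median difference of 0.21 and a median signal of 6.29 (1674 genes), and those without it -0.12 and 5.05 (13940 genes). A match in letters does not show that a factor binds, and the windows were picked after values were seen.

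All 7 inner membrane translocase genes had a higher mean in the Flattop-positive pools, with a median difference of 0.93, and 5 were higher without overlap. The 7 had a median signal of 6.24, and of genes outside the 40 at 6 to 7, 27.1% were higher without overlap. Timm17a, a channel subunit of the TIM23 complex, had 9.06, 8.88 and 8.96 in Flattop-positive pools, against 7.58 and 7.55 in Flattop-negative pools. Each group was tight and the gap between them was far wider than either spread, at 2.64-fold (1.40 ± 0.18 SE, unadjusted p = 0.000356, adjusted p = 0.198 in limma). It had the smallest p of the 40 genes, at rank 26 of all genes. Its X-linked paralogue Timm17b had 6.77, 6.21 and 6.92, against 5.54 and 5.75 (0.99 ± 0.28, adjusted p = 0.269). Timm23, the pore-forming subunit, had 8.21, 8.09 and 8.53, against 7.27 and 7.43 (0.93 ± 0.22, adjusted p = 0.238), and after cyclic loess its difference was 0.50. These 3 core subunits thus stood apart between the fractions on every array. Timm21, which links the translocase to respiratory chain assembly, had 6.11, 5.32 and 5.57, against 4.87 and 4.18 (1.14 ± 0.34, adjusted p = 0.279). Flattop-negative replicate 2 of Timm21 was below the level taken here for genes that islets do not express, which is the 95th percentile over olfactory receptors on each array. Timm50, the receptor that meets precursors as they leave the outer membrane, had 6.91, 6.78 and 6.61, against 6.44 and 5.64 (0.73 ± 0.29, adjusted p = 0.361). Leaving out Flattop-negative replicate 2 brought that to 0.33. In the carrier translocase TIM22 the groups overlapped for both subunits measured. Timm22 had a difference of 0.31 ± 0.29, and 0.056 without Flattop-negative replicate 2. Timm29 had one of 0.41 ± 0.30, and 0.032 without replicate 1.

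**Figure D3:**
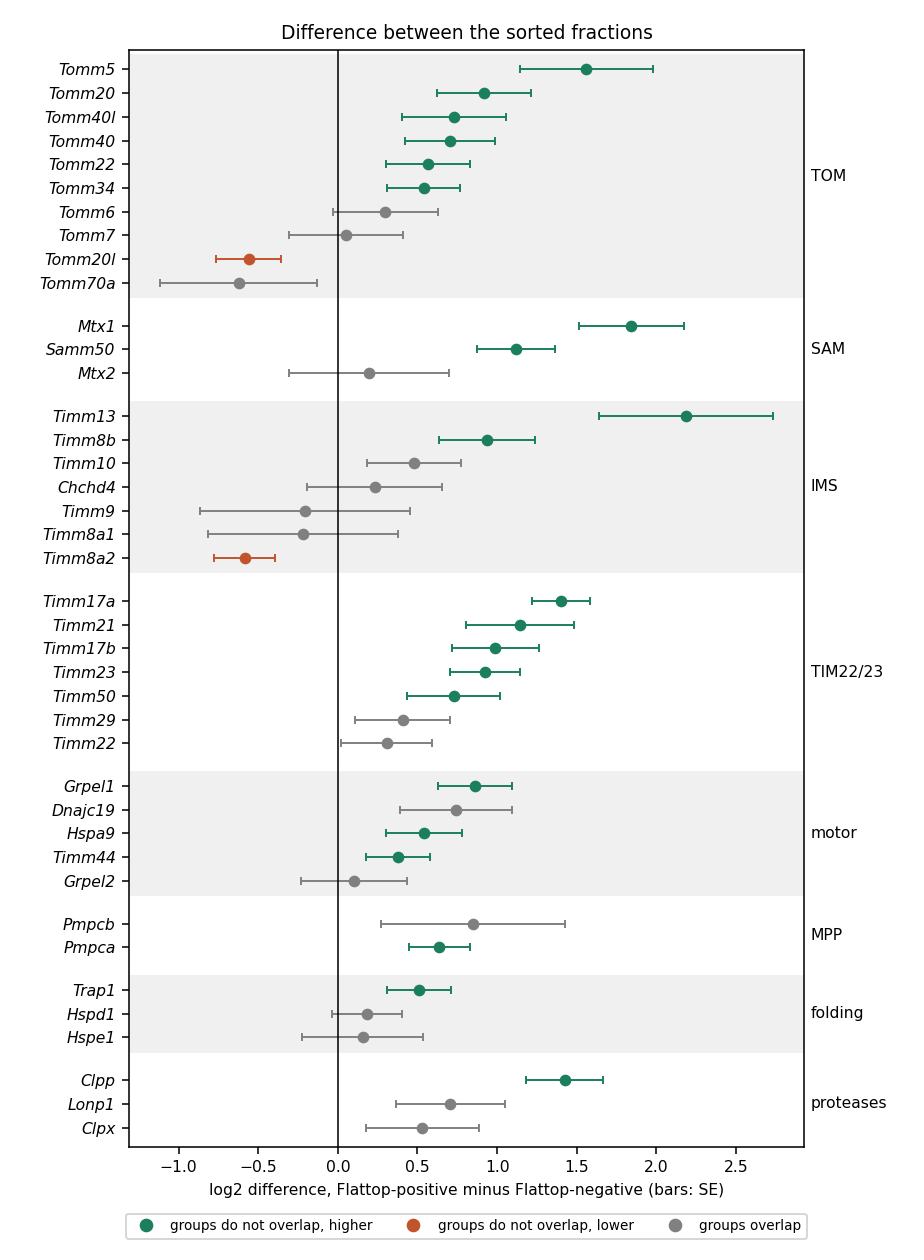
Log2 difference between Flattop-positive and Flattop-negative pools (points, x axis) with its SE (bars) for each of the 40 genes, by role. Green marks genes whose groups do not overlap and that are higher in the Flattop-positive pools, orange those that are lower and grey those that overlap; Timm13, at 2.19, is the farthest right.

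In the TOM complex, 8 of 10 genes had a higher mean in the Flattop-positive pools, 6 of them without overlap, and the median difference was 0.55. Tomm5, a small subunit of the channel, had 8.04, 7.99 and 6.85 in Flattop-positive pools, against 5.91 and 6.22 in Flattop-negative pools (1.56 ± 0.42, 2.95-fold, adjusted p = 0.257). Flattop-positive replicate 3 lay more than 1 log2 unit below the other 2, yet above both Flattop-negative pools. The presequence receptor Tomm20 had 9.11, 8.95 and 9.09, against 7.71 and 8.56 (0.92 ± 0.29, adjusted p = 0.300). Its difference was 0.49 without Flattop-negative replicate 1 and 0.47 after cyclic loess. Tomm40, the channel itself, had 6.88, 6.73 and 6.52, against 5.64 and 6.37 (0.70 ± 0.28, adjusted p = 0.361), and 0.33 without Flattop-negative replicate 1 or 1.07 without replicate 2. The central receptor Tomm22, the cytosolic co-chaperone Tomm34 and the Tomm40 paralogue Tomm40l were also higher without overlap, with differences of 0.57, 0.54 and 0.73 and adjusted p of 0.382 to 0.405. Tomm22 had 0.33 without Flattop-negative replicate 1, Tomm40l 0.45 without Flattop-positive replicate 3 and Tomm34 0.20 after cyclic loess. The other small subunits Tomm6 and Tomm7 overlapped between groups. Tomm6 had a difference of 0.30 ± 0.33 and Tomm7 one of 0.050 ± 0.36.

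Not all receptor genes lay the same way. Tomm70a, the receptor for carrier precursors handed over by cytosolic chaperones, had 7.12, 7.10 and 6.58 in Flattop-positive pools, against 8.34 and 6.77 in Flattop-negative pools. Only Flattop-negative replicate 1 was high, so the difference of -0.62 ± 0.49 (adjusted p = 0.573) was 0.17 without it. Tomm20l, a paralogue of Tomm20, had 5.40, 5.23 and 5.27, against 6.04 and 5.68, lower without overlap (-0.56 ± 0.21, adjusted p = 0.337). All its values were above the olfactory receptor level, and its mean signal lay in a range where other genes had a median difference of -0.012.

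The SAM complex held a pair of genes with wide gaps. Mtx1, the outer membrane protein metaxin 1, whose GABP letters lie closest to the start among the windows printed, had 7.40, 7.17 and 7.13 in Flattop-positive pools, against 4.90 and 5.88 in Flattop-negative pools. That was 3.59-fold (1.84 ± 0.33, unadjusted p = 0.00186, adjusted p = 0.199), and 1.35 without Flattop-negative replicate 1 or 2.34 without replicate 2. Samm50, the barrel that carries out insertion, had 6.29, 6.47 and 6.85, against 5.30 and 5.54 (1.12 ± 0.24, 2.17-fold, adjusted p = 0.220). Mtx2, the partner of metaxin 1, had 6.39, 6.63 and 6.79, against 7.25 and 5.57. Its Flattop-negative pools lay on either side of all 3 Flattop-positive pools, and the difference was 0.19 ± 0.50 (-0.64 without Flattop-negative replicate 2, -0.053 after cyclic loess).

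Among the 7 chaperones and oxidative folding factors of the intermembrane space, 2 were higher and 1 was lower without overlap. Of genes outside the 40 at 6 to 7, where the median signal of the 7 lay (6.54), 27.1% were higher and 3.27% lower without overlap. The median difference of the 7 was 0.23 (0.82 without Flattop-negative replicate 1, -0.36 without replicate 2). Timm13, which works with Timm8 proteins in the import of inner membrane precursors, had the largest difference of the 40 genes, 2.19 ± 0.55 (4.56-fold, adjusted p = 0.249). It had 8.37, 8.27 and 8.14 in Flattop-positive pools, against 5.14 and 7.01 in Flattop-negative pools. The Flattop-positive pools were close together and the Flattop-negative pools far apart, so leaving out Flattop-negative replicate 1 gave 1.25 and leaving out replicate 2 gave 3.13. Timm8b had 9.43, 9.08 and 8.72, against 8.42 and 7.87 (0.94 ± 0.30, adjusted p = 0.301; 0.49 after cyclic loess). Timm8a2 had 3.22, 3.29 and 3.14, against 3.69 and 3.91, below the olfactory receptor level on all 5 arrays, so the size of its difference (-0.59 ± 0.19) is uncertain. Genes at that mean signal had a median of -0.26.

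The remaining 4 genes of that space overlapped between groups. Timm9, which forms a chaperone complex with Timm10, had 6.67, 6.50 and 6.61 in Flattop-positive pools, against 7.95 and 5.64 in Flattop-negative pools. One Flattop-negative pool lay above and the other below all Flattop-positive pools, and the difference was -0.21 ± 0.66. Timm10 itself had 6.52, 6.89 and 6.78, against 5.86 and 6.64 (0.48 ± 0.30, adjusted p = 0.490), and 0.087 without Flattop-negative replicate 1 or 0.87 without replicate 2. Chchd4, the oxidoreductase that introduces disulphide bonds into incoming proteins, had a difference of 0.23 ± 0.43. The X-linked Timm8a1 had one of -0.22 ± 0.60. Timm10b was not among the 40 because its probe set also names Dnhd1; that probe set had 5.32, 5.39 and 5.29, against 5.80 and 4.91.

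In the import motor all 5 genes had a higher mean in the Flattop-positive pools, 3 without overlap, with a median difference of 0.54. Grpel1, the nucleotide exchange factor of mitochondrial Hsp70, had 8.73, 8.45 and 8.24, against 7.75 and 7.48 (0.86 ± 0.23, 1.82-fold, adjusted p = 0.260). After cyclic loess its difference was 0.42. Its paralogue Grpel2 had 7.39, 7.01 and 7.52, against 6.76 and 7.65 (0.10 ± 0.33). Hspa9, the Hsp70 itself, had 8.99, 9.10 and 8.98, against 8.19 and 8.77 (0.54 ± 0.24, adjusted p = 0.392), and 0.25 without Flattop-negative replicate 1 or 0.10 after cyclic loess. Timm44, which tethers the motor to the channel, had a difference of 0.38 ± 0.20 without overlap (0.20 after cyclic loess). The J protein Dnajc19 had one of 0.74 ± 0.35 with overlap (1.25 without Flattop-negative replicate 1, 0.24 without replicate 2).

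The presequence peptidase has an α subunit, Pmpca, and a β subunit, Pmpcb. Pmpca had 8.45, 8.39 and 8.24 in Flattop-positive pools, against 7.81 and 7.64 in Flattop-negative pools (0.64 ± 0.19, adjusted p = 0.279; 0.20 after cyclic loess). Pmpcb had 7.92, 7.72 and 7.83, against 7.98 and 5.97. Flattop-negative replicate 1 thus lay just above the Flattop-positive pools for Pmpcb while replicate 2 was low, and the difference was 0.85 ± 0.58 (-0.15 without replicate 2, 1.85 without replicate 1).

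The 3 matrix chaperones had a median difference of 0.18, which was 0.58 without Flattop-negative replicate 1, -0.043 without replicate 2, 0.42 with probe sets of a gene averaged and -0.25 after cyclic loess. Trap1, the mitochondrial Hsp90, had 6.84, 6.53 and 6.83, against 6.29 and 6.15, without overlap (0.51 ± 0.20, adjusted p = 0.357; 0.26 after cyclic loess). Hspd1, the chaperonin Hsp60, had 9.93, 9.82 and 10.01, against 9.96 and 9.51 (0.18 ± 0.22). Its co-chaperonin Hspe1, or Hsp10, had 11.44, 10.71 and 10.99, against 11.40 and 10.40 (0.16 ± 0.38). For both, Flattop-negative replicate 1 lay inside the range of the Flattop-positive pools. The direction for both turned after cyclic loess, to -0.25 for Hspd1 and -0.26 for Hspe1, and without Flattop-negative replicate 2, to -0.043 and -0.34.

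Those values depended on the probe set, since 6 of the 40 genes had more than 1. For Hspe1 the probe set that was not used had 11.39, 10.59 and 10.80 in Flattop-positive pools, against 10.23 and 10.24 in Flattop-negative pools. It was at most 0.19 below the probe set used on 4 arrays and 1.17 below it on Flattop-negative replicate 1. Its difference was 0.69 without overlap. The second probe set of Hspd1 was lower on that same array, at 9.15, where the one used had 9.96, with a difference of 0.52 without overlap. Probe sets named for 1 gene can also read near-identical copies of it elsewhere in the genome. No source used here says which copy each one reads, so the values of all 6 genes are uncertain in this respect. Members with 1 probe set share that limit and have no other probe set to compare. Timm17a, Timm23 and Tomm20 gave differences of 0.76 to 1.40 without overlap from each of their probe sets, while both probe sets of Timm8a1 overlapped. Of the 4 probe sets of Timm23, a pair held identical values.

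**Figure D4:**
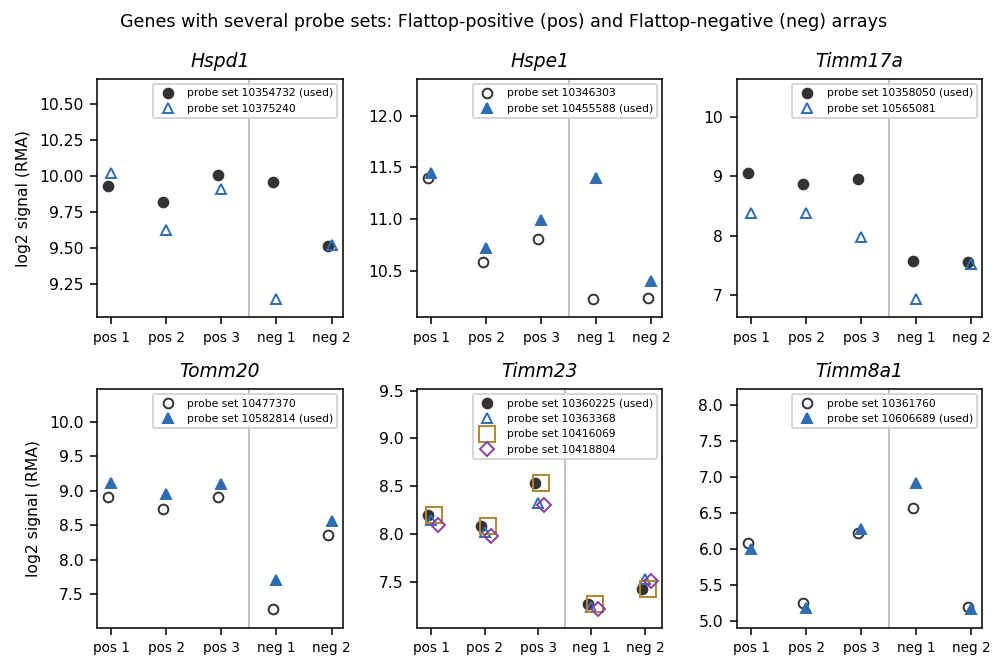
Log2 signal (y axis) of every single-gene probe set of the 6 genes that have more than 1, on the 3 Flattop-positive (pos) and 2 Flattop-negative (neg) arrays (x axis); filled symbols are the probe sets used. The probe sets of Hspd1 and of Hspe1 part on Flattop-negative replicate 1, where those of Timm23 stay together.

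The 3 matrix proteases all had a higher mean in the Flattop-positive pools, 1 of them without overlap. Their median difference was 0.71, or 1.06 without Flattop-negative replicate 1 and 1.13 without replicate 2. Clpp, the proteolytic subunit of the ClpXP protease, had 7.99, 8.09 and 8.06 in Flattop-positive pools, against 6.92 and 6.32 in Flattop-negative pools. The range of the Flattop-positive pools was 0.10, and the gap between groups was 2.68-fold (1.42 ± 0.24, unadjusted p = 0.00137, adjusted p = 0.199). Its unfoldase partner Clpx had 8.63, 8.32 and 8.67, against 8.54 and 7.48, with overlap (0.53 ± 0.35), and 0.0037 without Flattop-negative replicate 2. The Lon protease Lonp1 had 6.66, 6.68 and 6.32, against 5.35 and 6.35 (0.71 ± 0.34, adjusted p = 0.420), and 0.21 without Flattop-negative replicate 1 or 1.21 without replicate 2.

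The Flattop-negative pools differed widely from each other in 10 of the 40 genes. In 9 of the 40 Flattop-negative replicate 1 was more than 1 log2 unit above replicate 2 (22.5%, against 10.9% of all genes), and in 1 it was more than 1 unit below (2.5%, against 10.4%). The 9 were Timm9, Pmpcb, Timm8a1, Mtx2, Tomm70a, Chchd4, Tomm7, Clpx and Dnajc19, with gaps of 1.02 to 2.31, and the 1 was Timm13, at -1.88. The median gap between the Flattop-negative pools was 0.65 for members and 0.46 for all genes, while the range of the 3 Flattop-positive pools had a median of 0.39 and 0.38. In 19 of the 40 the gap between the Flattop-negative pools exceeded the difference between the groups. A higher replicate 1 was not particular to the members. On Flattop-negative replicates 1 and 2, complex I subunits had median levels of 8.20 and 7.73, and mitochondrial ribosomal proteins 6.86 and 6.23. Members had 6.72 and 6.33, and all genes 5.05 and 5.23. The shares given for all genes are not matched for signal.

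**Figure D5:**
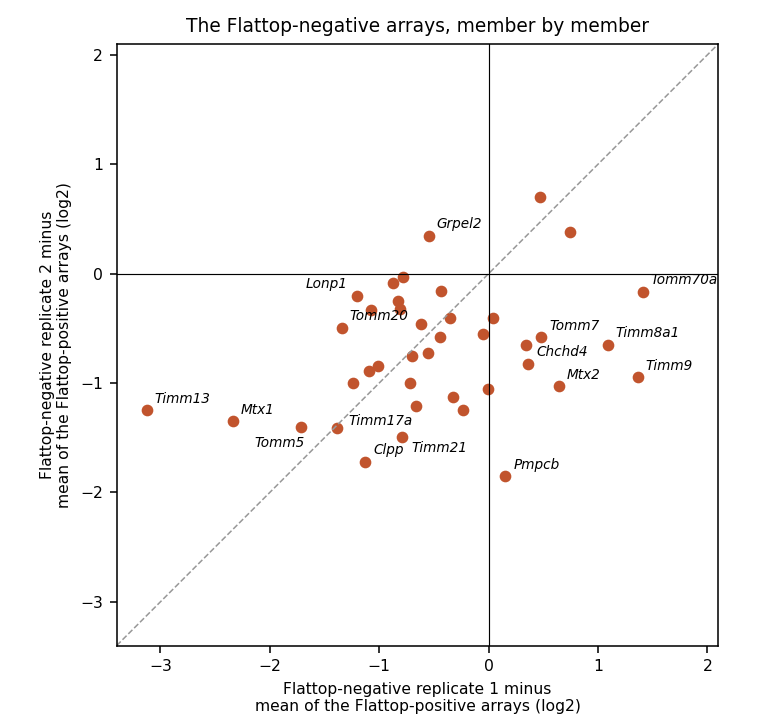
Log2 signal of each member on Flattop-negative replicate 1 (x axis) and replicate 2 (y axis), each minus the mean of the Flattop-positive pools; on the dashed line both differ from that mean equally. Timm17a lies near the line, Timm13 far to its upper left and Timm9 and Pmpcb far to its lower right.

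Other genes of the same pathway were read beside the members, from lists made with earlier results of these data known. Of 21 further import and assembly genes, 19 had a higher mean in the Flattop-positive pools, 14 of them without overlap, and the median difference was 0.61. The 21 had a median signal of 7.12, and of genes outside the 40 at 7 to 8, 29.8% were higher without overlap. With an unadjusted limma p under 0.05 and a gap of 1.5-fold or more, 9 of the 21 were higher and 0 lower. Of all genes 8.08% were higher and 3.74% lower by that p and fold. Romo1, a small inner membrane protein tied to the TIM23 complex, had 10.86, 10.63 and 10.54, against 8.60 and 9.58 (1.58 ± 0.33, adjusted p = 0.218). Chchd10, a protein of the intermembrane space, and Dnajc15, a J protein of the motor, had differences of 1.48 ± 0.28 and 1.41 ± 0.29. Of 11 other mitochondrial proteases and prohibitins all 11 had a higher mean, 8 without overlap, with a median difference of 0.83. At that p and fold 7 were higher. The 11 had a median signal of 6.48, and of the genes outside the 40 at 6 to 7, 27.1% were higher without overlap. Stoml2, a scaffold of the inner membrane, had 1.19 ± 0.21, the prohibitin Phb2 1.14 ± 0.34 and the protease Htra2 0.95 ± 0.32.

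Genes outside the organelle and regulators were read in the same way. Of 10 cytosolic chaperones and hand-over factors, 4 were higher without overlap and 0 passed an unadjusted limma p under 0.05 (13.8% of all genes). The median difference was 0.14 (0.28 without Flattop-negative replicate 2, -0.29 after cyclic loess). At the list's median signal of 8.75, in the range of 8 to 9, 36.4% of genes outside the 40 were higher without overlap. St13, Bag6 and Naca led that list with adjusted p of 0.370 to 0.423. The cytosolic chaperonin CCT had a median of 0.52 over 8 genes, 3 without overlap, and 0.042 without Flattop-negative replicate 2. Its median signal was 7.98, and of genes outside the 40 at 7 to 8, 29.8% were higher without overlap. Cct7 had 0.97 ± 0.18 and was the only CCT gene past that p and fold. Among 13 regulators of mitochondrial biogenesis and of the mitochondrial unfolded protein response, 5 were higher and 1 lower without overlap (13.7% and 21% of all genes). At that p and fold 2 were higher and 1 lower (8.08% and 3.74% of all genes). The 13 had a median signal of 6.63, and of the genes outside the 40 members at 6 to 7, 27.1% were higher without overlap. Ubl5, a ubiquitin-like protein of the mitochondrial unfolded protein response in worms, had 0.94 ± 0.27 and the transcription factor Nrf1 0.76 ± 0.25. Gabpa, the gene of a GABP subunit, overlapped between groups, with a difference of 0.21 ± 0.36. The coactivator Ppargc1a had 6.50, 5.32 and 6.36, against 7.39 and 7.58 (-1.43 ± 0.40, adjusted p = 0.270).

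Set beside other mitochondrial groups, the members had a median difference of 0.55, and complex I subunits one of 1.09 (35 genes, 20 higher without overlap). Mitochondrial ribosomal proteins had 0.72 (77 genes, 39 higher without overlap). Over all genes 13.7% were higher without overlap. Median signals were 6.84 for the members, 8.60 for complex I and 6.97 for the ribosomal proteins. Genes outside the 40 had a median difference of 0.29 at a signal of 6 to 7 (27.1% higher without overlap). At 8 to 9 these values were 0.43 and 36.4%. None of the genes in these lists passed the adjusted threshold. The median differences of the 3 groups moved with single arrays. Without Flattop-negative replicate 2 they were 0.52 for complex I, 0.27 for the ribosomal proteins and 0.59 for the members. Without replicate 1 they were 1.31, 1.02 and 0.69. The order of the 3 groups thus turned with the array left out, and the differences between them were not tested.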

How the data were processed

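Signals came from 5 arrays, 3 of Flattop-positive and 2 of Flattop-negative islet cell pools. RNA was amplified with Ovation PicoSL reagents and labelled with biotin, per the labels' protocols. The authors deposited log2 signals per probe set. According to the submitters' processing notes these are RMA values, computed in Expression Console 1.3.0.187. No build is given in the sources used here.

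Of 35556 probe sets, 21789 named 1 gene in the platform annotation, 1621 several and 12146 none. The comparison used limma 3.58.1 in R 4.3.3, two-sided, with group as the only term and Benjamini-Hochberg adjustment over all 19938 genes, and was tested on simulated data. Errors are SE of the difference (n = 3 and 2). The labels do not say whether pools shared mice, so p-values measure only the spread between these pools, and the number of arrays limits precision. Members, lists, naming rule and motifs were chosen with earlier results of these data known. Every member is accounted for, and up to 3 genes with the smallest p are named from each other list. Ins2, Iapp, Gcg and Gabpa are named besides. Promoter windows are from RefSeq (GRCm38.p6). Alternatives left out each array, took the replicate number as a block, or altered the normalisation, filter, probe set rule, variance model, array weights or fold threshold. Python used pandas 2.3.3 and matplotlib 3.10.9.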

Additional observations from a re-analysis of the deposited data

How the results depend on the processing

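The median difference of the 40 genes stayed above 0 under all alternatives run, from 0.36 (cyclic loess) to 0.73 (arrays centred on their medians). Leaving out one array at a time, the median was 0.57 to 0.69, the number higher without overlap 23 to 32 (21 with all arrays), lower without overlap 2 to 8 (2 with all arrays), lower at p under 0.05 and at least 1.5-fold 0 to 4 (1 with all arrays), and past the adjusted threshold 0 to 2, where the 2 come from the fit with Flattop-negative replicate 1 as the lone array of its group, in which 434 of all genes passed. With fewer arrays, groups part more easily in any gene. Of all 19938 genes, 3109 to 5832 were then higher without overlap (2735 with all arrays). Lower without overlap were 4700 to 8157 (4187 with all arrays). The count higher at p under 0.05 and at least 1.5-fold was 13 (8.08% of all genes). It was 22 with arrays centred (12.1% of all genes), 8 after cyclic loess (4.50%) and 7 at 2-fold (4.38%). The lower count was 1 with all arrays and 1.5-fold. It was 0 with arrays centred, after cyclic loess, with array weights, at 2-fold and with dim genes left out. In that last setting Timm8a2 was not tested and 1 gene was lower without overlap.

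Replicate numbers 1 and 2 occur in both groups, and the labels give them no meaning beyond a number. The same-numbered arrays' deviations correlated at 0.18 and -0.14, but with 2 Flattop-negative arrays, whose deviations mirror each other, this cannot show whether the numbers pair the samples. With the replicate block, which drops Flattop-positive replicate 3, the median was 0.61, Tomm7 was -0.031 and Grpel2 -0.0065. At p under 0.05 and at least 1.5-fold 9 members were higher and 0 lower, and the share of all genes is not given for this setting. Without overlap 23 of the 40 were higher and 2 lower, against 3916 and 5648 of all genes.

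Directions turned for 11 genes, all 11 with overlapping groups. After quantile normalisation the difference was -0.0039 for Tomm6, -0.44 for Tomm7, -0.19 for Grpel2, -0.34 for Hspd1 and -0.12 for Hspe1. After cyclic loess it was -0.14 for Tomm6, -0.38 for Tomm7, -0.053 for Mtx2, -0.27 for Grpel2, -0.25 for Hspd1 and -0.26 for Hspe1. Leaving out one array at a time gave a range of -1.41 to 0.17 for Tomm70a, -0.48 to 0.58 for Tomm7, -0.64 to 1.03 for Mtx2, -0.36 to 0.82 for Chchd4, -1.09 to 0.65 for Timm8a1, -1.36 to 0.95 for Timm9, -0.35 to 0.55 for Grpel2, -0.15 to 1.85 for Pmpcb, -0.043 to 0.41 for Hspd1 and -0.34 to 0.66 for Hspe1. The cause was not tested. With 2 Flattop-negative arrays, each one carries much of a difference. Timm8a2, and Timm21 on Flattop-negative replicate 2, were too dim for their size to be read.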

Other observations

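Genes whose products work together parted between the Flattop-negative pools. Mtx1 was lower on Flattop-negative replicate 1 than on replicate 2 (-0.99), while its partner Mtx2 was higher there (1.68). Timm13 and Timm10 were lower on replicate 1 (-1.88 and -0.79), while Timm8a1 and Timm9 were higher (1.74 and 2.31). For the presequence peptidase, Pmpca differed by 0.17 between these pools and Pmpcb by 2.01. Of the inner membrane translocase genes, Timm17a differed by 0.029, Timm23 by -0.16 and Timm17b by -0.20, while Timm50 differed by 0.80, Timm29 by -0.75, Timm21 by 0.70 and Timm22 by 0.50. Across the 40 genes the Flattop-negative pools correlated at r = 0.824 and the Flattop-positive pools at 0.960 to 0.979, a description over genes that share arrays. These genes were named after their values were seen.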
